A study of Mus musculus with 12 samples.

Results

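Translation efficiency, the number of ribosomes on an mRNA relative to the amount of that mRNA, was compared between livers of Maf1 KO mice and wild-type mice for every gene of the ribosome profiling table, 11587 of 11587 genes. Ribosome profiling sequences the short mRNA fragments (footprints) that ribosomes shield from RNase, and total RNA was sequenced in parallel, by the methods from the same livers. The mutant mice were KO1, KO2 and KO4, whole-body knockouts of Maf1, and the controls were WT1, WT2 and WT3, all on the C57BL/6 background and 12 to 14 weeks old by the labels. The labels class all mice as refed, whereas the methods describe 12 week old mice with free access to food that were killed in the dark phase. Efficiency was computed per mouse and gene by subtracting total RNA from footprints, both as log2 of normalized read numbers averaged over the transcripts of a gene, after the median over genes of each library had been set to 0. A value of 0 therefore marks a gene that stands equally far from the median in both libraries, and a difference of 1 is a doubling relative to the other genes. The targeted gene, Maf1, was not analysed here, and the labels were taken as given.

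MAF1 represses RNA polymerase III, the enzyme that makes tRNAs, 5S rRNA and other short RNAs, and it is a substrate of the mTORC1 kinase. The mRNAs of ribosomal proteins and elongation factors carry a tract of pyrimidines (C or T) right at their start, the terminal oligopyrimidine or TOP motif, through which mTORC1 controls how many ribosomes they hold. Translational buffering is the case in which the amount of an mRNA differs but the number of footprints differs less, so that the output of protein is closer than the mRNA. In liver, hepatocytes devote much of their translation to secreted plasma proteins and metabolic enzymes.

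A library that stood apart has to be described first. In wild-type mouse WT3, the footprints and the total RNA disagreed for several genes of inflammation, stress and lipid metabolism. Nnmt, a nicotinamide methyltransferase, had footprint scores of -0.64, 2.77 and 3.90 in Maf1 KO livers, against 3.31, 3.32 and 5.61 in WT1, WT2 and WT3. Its total RNA scores were -1.54, 1.94 and 3.09 in Maf1 KO livers, against 2.67, 2.52 and -0.73 in the same wild-type livers. The efficiency of Nnmt was thus 6.33 in WT3 and between 0.64 and 0.90 in the other 5 mice. Saa1, which encodes the inflammatory plasma protein serum amyloid A, had an efficiency of 0.99, 2.13 and 1.87 in Maf1 KO livers and of 1.46, 1.88 and 5.76 in wild-type livers, again high in WT3. Serpina12, which encodes the adipokine vaspin, went the other way, with efficiencies of 0.21, 0.04 and 0.48 in Maf1 KO livers and of 0.08, -0.14 and -3.33 in wild-type livers. Among the 5023 genes whose mean footprint and mean total RNA scores were above the median (called abundant below), 10 lay more than 2 log2 units from the mean of the other mice of their genotype in WT3, beside 2 in KO4, 0 in KO1 and KO2, 5 in WT1 and 1 in WT2. Nnmt and Saa1 count for WT1 too, because WT3 enters the mean against which WT1 is set. Across 5023 abundant genes the footprint deviations of WT3 from the wild-type mean correlated at 0.27 with its own total RNA deviations and at -0.23 and -0.04 with those of the other wild-type livers, values that centring on a mean of 3 mice itself pulls apart. The efficiencies of WT3 take both of its libraries to come from 1 liver, as labelled. Results that rest on WT3 are given with and without it.

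**Figure D1:**
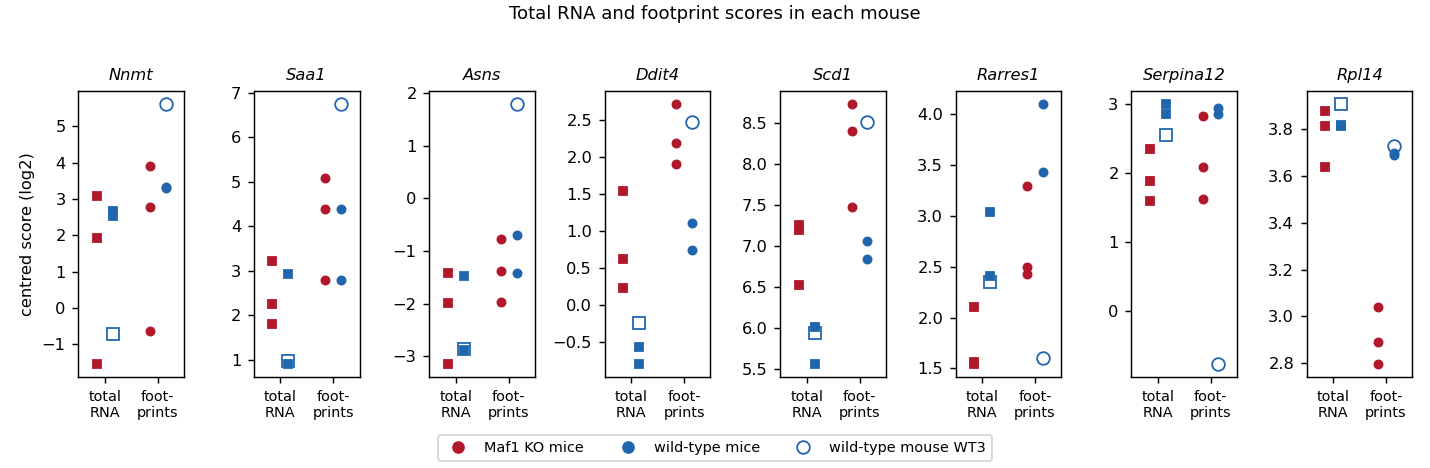
Centred log2 scores (y axis, own scale per gene) of total RNA (squares) and footprints (circles) for 8 genes in each Maf1 KO mouse (red, left) and each wild-type mouse (blue, right), with WT3 as open symbols. WT3 had high footprints beside low total RNA for Nnmt and Saa1 and low footprints for Rarres1 and Serpina12, whereas for Rpl14 its footprint score of 3.73 lay with the other wild-type mice, above all Maf1 KO mice.

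Across genes, differences in efficiency were small, and no gene was called. The middle 50 percent of the 11587 differences lay between -0.15 and 0.17, and 91.7% were within 0.5 of 0. At an adjusted p under 0.05 in limma, 0% of genes passed in efficiency and 0% in footprints, where the smallest adjusted p was 1 and 0.513. In total RNA 2 genes passed (0.0173%), and both rose in Maf1 KO livers: Cdkn1a, the cell cycle inhibitor p21 (2.27, SE 0.15, adjusted p = 0.00162), and Me1, malic enzyme, a source of NADPH for fat synthesis (1.06, SE 0.11, adjusted p = 0.0368). At an unadjusted p under 0.05, 137 genes were higher (1.18%) and 190 lower (1.64%) in efficiency, 327 in all, where 464 reached that level in footprints and 1001 in total RNA. Leaving out any mouse lost the call of Me1 and kept that of Cdkn1a, and leaving out KO1 and WT3 together lost both.

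Footprints were less precise than total RNA. The median standard error of a difference was 0.25 in efficiency, 0.22 in footprints and 0.16 in total RNA, and the spread between mice of a genotype was largest for weakly occupied mRNAs. With genes split into 4 equal bins by mean footprint score, the lowest bin had a median within-genotype SD of efficiency of 0.42 and 88 genes that differed by at least 1, whereas the highest bin had an SD of 0.25 and 5 such genes. The widths of the efficiency distributions overlapped between genotypes, with interquartile ranges of 1.201, 1.263 and 1.514 in KO1, KO2 and KO4 and of 1.346, 1.253 and 1.415 in WT1, WT2 and WT3 (p = 1 by a two-sided exact permutation test, whose smallest possible p with 3 mice a group is 0.1). On the deposited scale, without centring, the median efficiency was -2.015, -1.044 and -1.129 in KO1, KO2 and KO4. It was -1.487, -1.435 and -0.636 in WT1, WT2 and WT3 (p = 0.6 by a two-sided exact permutation test). The median efficiency difference over all genes was -0.19 on that scale. Without KO1 and WT3 it was 0.40, but these are the lowest and the highest of the 6 values, so this choice itself pushes the difference up. The values overlapped between genotypes. All differences here are therefore relative to a median whose own level, and direction, is not settled by these 6 mice.

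The mRNAs of ribosomal proteins had lower efficiency values in Maf1 KO livers as a list, although no single gene passed the test. All 3 Maf1 KO livers lay below all 3 wild-type livers for 29 of 81 measured ribosomal protein genes (35.8%), and 0 genes of the list showed the opposite, whereas over all genes the share without overlap was 3.5% lower and 3.94% higher. Among the 81 genes, 75 had a negative difference, and the median difference was -0.36 where that of all genes was 0.02. No member passed the test across all genes (limma adjusted p = 1 for each), and 28 were lower at an unadjusted p under 0.05. The study singled out ribosomal proteins in these same libraries, so their direction here is not independent evidence. With its own normalization, the study also reported mRNAs with significantly lower efficiency and a general decrease in ribosome occupancy. Its fits were not repeated here, and centring removes a change common to all genes. Without KO1 and WT3, the mice with the lowest and the highest median efficiency on the deposited scale, the count without overlap was 44 of 81, beside 14.6% of all genes, and without WT3 alone it was 35, beside 7.59%.

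Proteins of the small subunit had a median efficiency of 0.02, -0.38 and -0.19 in KO1, KO2 and KO4, against 0.06, 0.10 and 0.29 in WT1, WT2 and WT3, so that the nearest mice of the 2 genotypes were close. For the large subunit the values were -0.38, -0.45 and -0.57 in Maf1 KO livers, against -0.13, -0.09 and -0.11 in the wild-type livers, with a wide gap between genotypes. The median difference was -0.36 for 32 proteins of the 40S subunit, 10 of them without overlap, and -0.35 for 49 proteins of the 60S subunit, 19 of them without overlap. Footprints differed more than mRNA: the median footprint difference was -0.51 in the 40S list and -0.49 in the 60S list, beside total RNA differences of -0.14 and -0.15. Total RNA of 5 of the 32 and 4 of the 49 was lower without overlap, and 0 of either list higher, where over all genes 7.03% were lower and 6.92% higher. The members ranged from -1.11 for Rps16 to 0.27 for Rps29.

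**Figure D2:**
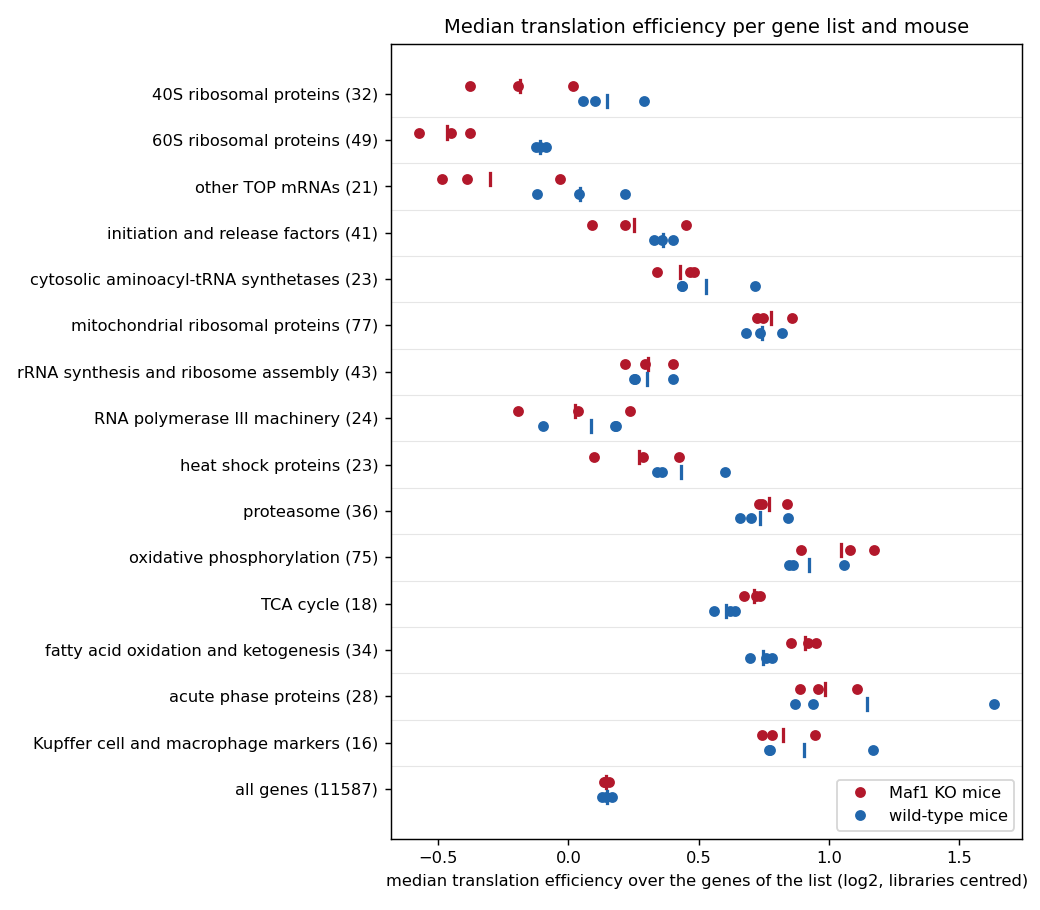
Median efficiency over the measured genes of 16 lists (number of genes in brackets), in log2 with libraries centred, for each Maf1 KO mouse (red, upper row) and each wild-type mouse (blue, lower row), with the mean as a vertical line. The 60S list lay between -0.57 and -0.38 in Maf1 KO mice and between -0.13 and -0.09 in wild-type mice, while all genes lay between 0.13 and 0.17 in every mouse.

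Rpl14, a protein of the 60S subunit (chromosome 9, 120480632 to 120483770 in mm9), was 1 of the 8 abundant genes with the smallest p in the low direction. Its footprint scores were 2.89, 2.80 and 3.04 in Maf1 KO livers, against 3.69, 3.70 and 3.73 in the wild-type livers. Total RNA scores were 3.64, 3.81 and 3.88 in Maf1 KO livers, against 3.81, 3.82 and 3.91 in the wild-type livers. The mRNA level thus overlapped between genotypes and the ribosome occupancy did not. Efficiency was -0.75, -1.02 and -0.84 in Maf1 KO livers, against -0.13, -0.12 and -0.18 in the wild-type livers, a difference of -0.72 (SE 0.16, limma adjusted p = 1).

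Rps18, of the 40S subunit (chromosome 17, 34088944 to 34092946), had efficiencies of -1.32, -1.76 and -1.26 in Maf1 KO livers, against -0.47, -0.49 and -0.88 in the wild-type livers, a difference of -0.83 (SE 0.20). Rps20, also of the 40S subunit (chromosome 4, 3758481 to 3762812), had -0.86, -1.12 and -1.13 in Maf1 KO livers, against -0.40, -0.26 and -0.52 in the wild-type livers (-0.64, SE 0.17). Rpl37a (chromosome 1, 72757834 to 72760383) had 0.17, -0.28 and 0.38 in Maf1 KO livers, against 0.77, 1.64 and 0.74 in the wild-type livers (-0.96, SE 0.27), a larger difference with a larger spread. In each of these genes the groups did not overlap. The same held for Rps27 and Rps9 of the 40S subunit and for Rpl22, Rpl38, Rpl10a and Rpl28 of the 60S subunit, with differences of -0.74 in Rps27, -0.56 in Rps9, -0.57 in Rpl22, -0.67 in Rpl38, -0.52 in Rpl10a and -0.64 in Rpl28. Rps16 had the largest difference of the list and did overlap: 1.12, 1.06 and 1.87 in Maf1 KO livers, against 2.21, 1.87 and 3.31 in the wild-type livers, and its difference of -1.11 was -0.69 without WT3. Rpl11, a 60S protein that also binds MDM2 when ribosome assembly fails, had -0.47, -0.27 and -0.46 in Maf1 KO livers, against -0.12, 0.00 and 0.16 in the wild-type livers (-0.41, SE 0.17), and its difference was -0.09 when the highest transcript was used in place of the mean. Ribosomal protein genes have many processed pseudogenes, and the sources used here do not say how tags shared between copies were counted. A pseudogene of Rps23, listed as Gm15450, had -0.84, -1.002 and -1.18 in Maf1 KO livers and -0.38, -0.24 and -0.30 in wild-type livers, which may hold tags of the parent gene.

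Other TOP mRNAs lay in the same direction, in a looser way. Of 21 measured genes, 20 had a negative efficiency difference and 10 did not overlap (47.6%), all of these lower in Maf1 KO livers. Over all genes 3.5% were lower without overlap. The list medians of -0.03, -0.39 and -0.48 in Maf1 KO livers and 0.04, -0.12 and 0.22 in wild-type livers overlapped, since KO1 lay above WT2. Tpt1, which encodes the abundant tumor protein TCTP (chromosome 14, 76244900 to 76248332), had efficiencies of -0.75, -1.39 and -1.34 in Maf1 KO livers, against 0.25, -0.47 and -0.40 in the wild-type livers. Its difference of -0.96 (SE 0.25) came from footprints alone, the total RNA difference being 0.00. Eef1b2, a subunit of the factor that reloads the elongation factor eEF1A with GTP (chromosome 1, 63223399 to 63227060), had -0.55, -1.17 and -0.93 in Maf1 KO livers, against 0.05, -0.10 and -0.27 in the wild-type livers (-0.78, SE 0.20). Eef1a1, the factor that brings aminoacyl-tRNA to the ribosome, differed by -0.46, and Eef2, which moves the ribosome along the mRNA, by -0.51. Gnb2l1, the 40S scaffold RACK1, differed by -0.43 and the initiation factor subunit Eif3f by -0.44. None of these 4 genes overlapped between genotypes. Vim, which encodes the intermediate filament vimentin and is a TOP mRNA of mesenchymal cells, had a difference of -0.10 with 0.28 in total RNA.

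**Figure D3:**
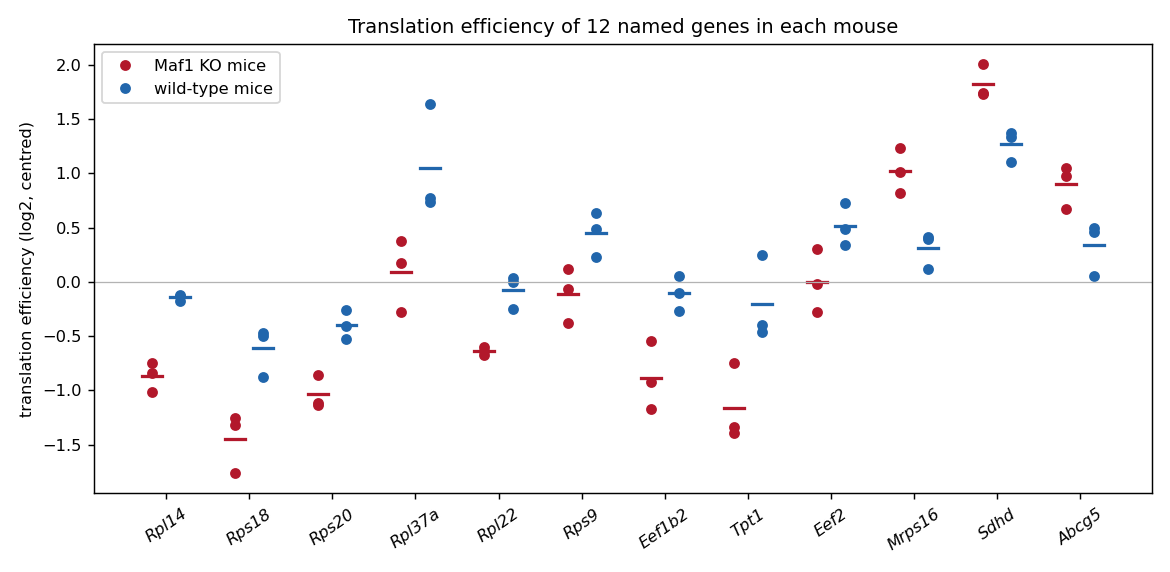
Efficiency (log2, centred) of 12 named genes in each Maf1 KO mouse (red, left) and each wild-type mouse (blue, right), with the mean as a horizontal bar. The first 9 genes encode ribosomal proteins or elongation and other TOP proteins and were lower in all Maf1 KO mice than in any wild-type mouse, such as Rpl14 at -1.02 to -0.75 against -0.18 to -0.12; Mrps16, Sdhd and Abcg5 show the reverse.

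The start regions of 6 of these genes are shown because they hold the motif searched below, with that of Tpt1, which does not, for contrast. Each is 30 bases of the sense strand around the start annotated by RefSeq (GRCm38.p6), from 10 bases before it to 20 bases from it on, and capitals mark the longest run of C and T.
Rpl14: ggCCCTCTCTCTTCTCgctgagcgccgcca
Rps18: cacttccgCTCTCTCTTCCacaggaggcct
Rps27: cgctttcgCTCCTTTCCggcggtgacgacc
Rpl38: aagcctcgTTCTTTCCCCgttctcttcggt
Rpl28: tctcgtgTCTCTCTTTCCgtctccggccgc
Eif3f: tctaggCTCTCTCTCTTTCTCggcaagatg
Tpt1: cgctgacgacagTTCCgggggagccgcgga
The windows lie in GRCm38.p6 at chr9:120571507-120571536 (plus strand) for Rpl14, chr17:33955646-33955675 (minus) for Rps18, chr3:90213629-90213658 (minus) for Rps27, chr11:114668570-114668599 (plus) for Rpl38, chr7:4792955-4792984 (plus) for Rpl28, chr7:108934405-108934434 (plus) for Eif3f and chr14:75845246-75845275 (plus) for Tpt1. In the first 6 genes the run spans the annotated start, and its length is 14 bases in Rpl14, 11 in Rps18, 9 in Rps27, 10 in Rpl38, 11 in Rpl28 and 15 in Eif3f, whereas in Tpt1 and in Eef1b2, which is not shown, the longest run has 4 bases. The motif searched was C at the annotated start followed by at least 4 bases that are C or T, on the sense strand, and 2.5% of all 32851 RefSeq starts hold it. Among 59 matched ribosomal protein genes 14 hold it (23.7%), and among those that do not are Rpl37a, Rpl22, Rps16, Rpl10a, Rps9 and Rpl11, nor does Eef2. Because RefSeq starts were matched for only 72.8% of the 81 ribosomal protein genes and for 68.4% of all genes, a comparison of efficiency by this motif is void.

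Transcript starts of gencode vM1 covered 93.7% of genes, and there the motif was present in 5.3% of all genes and in 16 of 80 ribosomal protein genes (20%). The 16 had a median efficiency difference of -0.46, with 8 lower without overlap, and the ribosomal protein genes without the motif had -0.31, with 32.81% lower. Outside ribosomal protein and other TOP genes, 553 genes carried it, with a median difference of 0.02 and 2.71% lower without overlap, beside 0.02 and 3.11% for those without it. Absence of the motif says only that these letters are not at the annotated start.

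Ribosomal proteins are small, and the median difference of other genes with short coding sequences was near 0. A part of coding length in the ribosomal protein result was not tested. The coding sequences were taken from gencode vM1, with a median coding length of 456 bases in the 40S list and 477 in the 60S list. In the shortest of 4 bins of all genes (114 to 873 bases), the median efficiency difference was 0.00, and it was 0.01 after ribosomal protein and other TOP genes were left out. Without overlap, 4.22% of the shortest bin were lower and 2.86% higher, or 3.28% and 2.94% with those genes left out. The other bins, from shorter to longer, had medians of 0.03, 0.03 and 0.01. In these bins 3.73%, 2.7% and 3.03% were lower without overlap and 4.58%, 4.88% and 3.91% higher. The 75 nuclear genes of oxidative phosphorylation (median 432 bases) had a median efficiency difference of 0.07, and 77 mitochondrial ribosomal proteins (median 591 bases) had 0.05.

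The rest of the translation apparatus differed little. Mitochondrial ribosomal proteins had a median efficiency of 0.75, 0.72 and 0.86 in Maf1 KO livers, against 0.73, 0.68 and 0.82 in the wild-type livers. Among the 77 genes, 1 was lower and 3 were higher without overlap. Over all genes, beside which this and the next counts stand, 3.5% were lower and 3.94% higher. Initiation and release factors outside the TOP class had a median difference of -0.06, with 2 lower and 1 higher without overlap among 41. Cytosolic aminoacyl-tRNA synthetases, which charge tRNAs, had -0.03, and the mitochondrial enzymes had 0.03. Factors of rRNA synthesis and ribosome assembly had -0.09 (1 lower and 1 higher among 43), and the 24 measured genes of the RNA polymerase III machinery, the complex that MAF1 represses, had 0.02 with no gene free of overlap. Signal recognition particle and Sec61 genes had -0.02, proteasome genes 0.02, and heat shock proteins -0.11 with 18 of 23 below 0. Among heat shock proteins Hspe1, the mitochondrial HSP10, had 0.96, 0.84 and 0.66 in Maf1 KO livers, against 1.23, 1.14 and 1.11 in the wild-type livers, a difference of -0.34 (SE 0.16).

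No common shift was seen in the stress pathway that acts through eIF2 and ATF4. The 23 measured genes had a median difference of -0.01, with 13 below 0. Atf4, whose mRNA is translated best when eIF2 is inhibited, had efficiencies of -2.08, -1.92 and -2.04 in Maf1 KO livers, against -1.68, -1.48 and -1.76 in the wild-type livers (-0.37, SE 0.18, limma adjusted p = 1). The groups did not overlap, and Atf4 total RNA differed by -0.32 as well. Asns, the ATF4 target asparagine synthetase, had efficiencies of 1.19, 0.64 and 0.61 in Maf1 KO livers, against 0.78, 1.47 and 4.65 in the wild-type livers, and its difference of -1.49 was -0.31 without WT3.

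The 8 abundant genes with the smallest p for higher efficiency in Maf1 KO livers did not share a list. They included Mrps16 and Sdhd, which work in mitochondria, and Cdc26, a subunit of the anaphase promoting complex. Also among them were Abcg5, a sterol exporter of the hepatocyte, and Samd8, which belongs to the sphingomyelin synthase family. Mrps16, a mitochondrial ribosomal protein (chromosome 14, 21210453 to 21212777), had 1.01, 1.23 and 0.82 in Maf1 KO livers, against 0.39, 0.12 and 0.41 in the wild-type livers (0.71, SE 0.19, limma adjusted p = 1). Sdhd, an anchor subunit of succinate dehydrogenase (chromosome 9, 50404443 to 50411954), had 1.74, 1.73 and 2.01 in Maf1 KO livers, against 1.11, 1.34 and 1.38 in the wild-type livers (0.55, SE 0.17). Abcg5 (chromosome 17, 85057574 to 85082351) had 0.68, 1.05 and 0.98 in Maf1 KO livers, against 0.46, 0.50 and 0.06 in the wild-type livers (0.56, SE 0.20). In these 3 genes the footprint difference was positive and the total RNA difference negative, none of them past the test: footprints differed by 0.32 in Mrps16, 0.29 in Sdhd and 0.32 in Abcg5, and total RNA by -0.40 in Mrps16, -0.27 in Sdhd and -0.24 in Abcg5, whose total RNA overlapped. Cdc26 had 0.54, 0.26 and 0.53 in Maf1 KO livers, against -0.14, -0.22 and -0.26 in the wild-type livers, with a footprint difference of 0.53. AI316807, now named Smim19, differed by 0.81, Samd8 by 0.69, Gm5617 by 0.78 and 1600012H06Rik by 0.51. In oxidative phosphorylation the 2 genes with the smallest p pointed opposite ways, Sdhd up and Atp5e, the epsilon subunit of ATP synthase, down, at 1.16, 1.48 and 1.57 in Maf1 KO livers and 2.06, 1.73 and 1.94 in wild-type livers. Among the 8 abundant genes with the smallest p in the low direction, 6 encode ribosomal or other TOP proteins, 1 is the Rps23 pseudogene and 1 is D4Wsu53e, now named Rsrp1, a protein rich in arginine and serine, which had 0.20, 0.34 and 0.34 in Maf1 KO livers and 1.28, 0.79 and 0.90 in wild-type livers.

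Genes chosen for a difference in mRNA mostly had a smaller difference in footprints, which such a choice itself favours, as described below. Total RNA was at least 0.5 higher without overlap in Maf1 KO livers for 286 genes (2.47%) and at least 0.5 lower for 105 genes (0.906%). For the 286 genes the median difference was 0.65 in total RNA and 0.37 in footprints, and the footprint difference was of opposite sign in 38, of the same sign and smaller in 204, and at least as large in 44. For the 105 genes the medians were -0.61 in total RNA and -0.31 in footprints, with 25 of opposite sign, 70 smaller and 10 at least as large. Together the footprint difference was smaller or opposite in 86.2% of the 391 genes, and the median ratio of footprint to total RNA difference was 0.53. All 391 genes were measured in the same 6 mice, so no error is given for this share. Over abundant genes the ratio was 0.60 for 44 genes with more mRNA and 0.56 for 39 with less.

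Efficiency subtracts the total RNA score, so an error in total RNA moves the mRNA difference and the efficiency difference in opposite directions, and genes chosen for a large mRNA difference will tend to show it. The choice was therefore also made on the other library. When 329 genes were chosen by the same rule on their footprint differences, the total RNA difference was smaller or opposite in 91.8% and the median ratio of total RNA to footprint difference was 0.30. Among abundant genes chosen this way, 21 were higher, with 0.71 in footprints and 0.46 in total RNA, and 83 were lower, with -0.62 in footprints and -0.18 in total RNA. A smaller difference in the library that was not used for the choice was thus found in both directions of choice. Genes were also binned by their total RNA difference, without a choice on overlap. Such bins are still a choice on total RNA, so its errors alone would make the footprint medians smaller. The median footprint difference was 0.73 for the 31 genes with at least 1 more in total RNA. It was 0.33 for 419 genes between 0.5 and 1, and 0.17 for 1168 genes between 0.25 and 0.5. In the other direction it was -0.12 for 1098 genes between -0.5 and -0.25, and -0.26 for 180 genes between -1 and -0.5. For the 21 genes with at least 1 less it was -0.49.

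WT3 bore on the size of the pattern. Without it, 397 genes had higher and 188 lower total RNA by the same rule, and the median ratio of footprint to total RNA difference was 0.71 for the first and 0.69 for the second. Among abundant genes without WT3, 63 with more mRNA differed by 0.69 in total RNA and by 0.66 in footprints, and 72 with less mRNA by -0.61 and -0.51. The share with a smaller or opposite footprint difference was 75.4% without WT3, where leaving out any other mouse gave 85.5% to 89.1%.

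**Figure D4:**
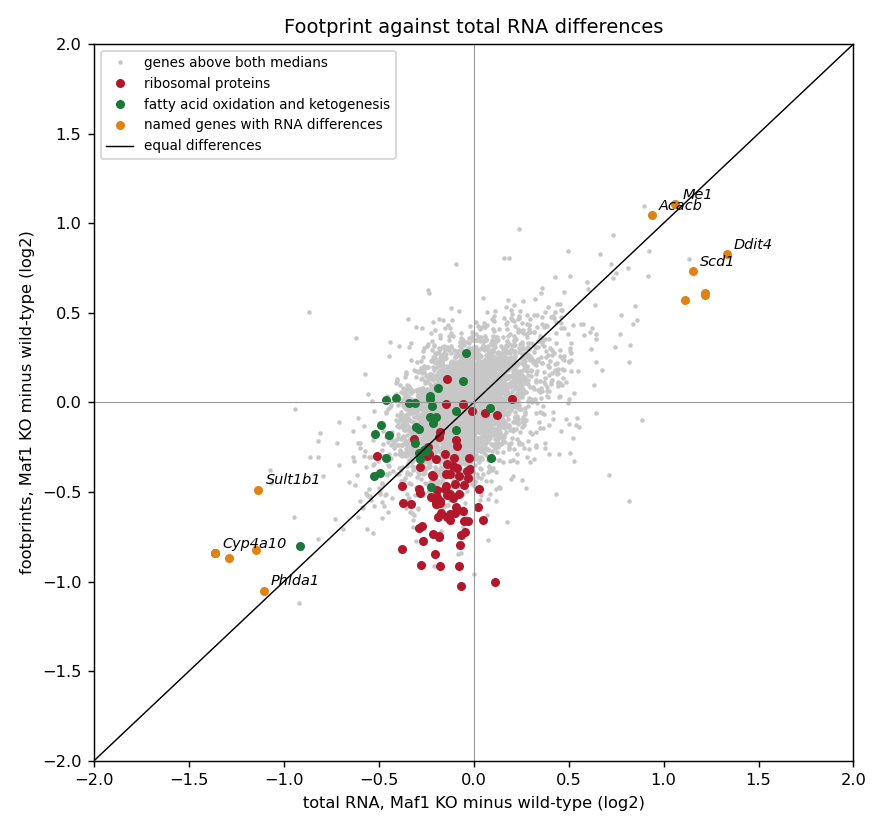
Footprint difference (y axis) against total RNA difference (x axis), Maf1 KO minus wild-type in log2, for 5023 abundant genes (grey), the 81 ribosomal proteins (red), 34 genes of fatty acid oxidation and ketogenesis (green) and 12 named genes with large mRNA differences (orange). The line marks equal differences; most ribosomal proteins lie below it, with median differences of -0.50 in footprints and -0.14 in total RNA, while Me1 and Acacb lie on it and the Scd and Cyp4a genes between it and 0.

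The list of fatty acid and triglyceride synthesis, 30 measured genes, had a median total RNA difference of 0.09, with 12 below 0, 4 higher and 3 lower without overlap (6.92% and 7.03% of all genes). Among the 8 abundant genes with the largest mRNA differences toward Maf1 KO livers were 4 desaturases that share tags, Scd1 to Scd4, and Me1 and Acacb, and these differed in how far footprints followed. Scd1, the main hepatic stearoyl-CoA desaturase (chromosome 19, 44468941 to 44482199), had total RNA scores of 7.26, 6.52 and 7.19 in Maf1 KO livers, against 5.56, 6.01 and 5.94 in the wild-type livers. Its footprint scores were 8.72, 7.48 and 8.39 in Maf1 KO livers, against 7.06, 6.83 and 8.51 in WT1, WT2 and WT3. Only in WT3 did the footprints reach the range of the Maf1 KO livers, although its Scd1 mRNA was as low as in the other wild-type livers. The efficiency difference of -0.42 was 0.05 without WT3, so that its sign turned. Scd2, Scd3 and Scd4, whose sequences are close enough to share tags, had efficiency differences of -0.60 in Scd2, -0.62 in Scd3 and -0.54 in Scd4, which were -0.20, -0.28 and -0.14 without WT3.

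Me1 (chromosome 9, 86474970 to 86589947), in contrast, had 4.005, 4.01 and 4.09 in total RNA of Maf1 KO livers, against 2.92, 3.11 and 2.90 in the wild-type livers, and 4.70, 4.61 and 4.49 in footprints of Maf1 KO livers, against 3.13, 3.62 and 3.71 in the wild-type livers. Neither library overlapped between genotypes, and the difference was 1.06 in mRNA and 1.11 in footprints, which left 0.05 (SE 0.20) in efficiency. Acacb, the acetyl-CoA carboxylase of the mitochondrial surface (chromosome 5, 114596544 to 114700770), likewise had 0.94 in total RNA and 1.04 in footprints, its efficiency difference being 0.10 (SE 0.18). For Me1 and Acacb footprints thus followed mRNA in full. Fasn, fatty acid synthase, had an efficiency difference of -0.10 and Acaca, the cytosolic acetyl-CoA carboxylase, one of 0.04. Plin2, which coats lipid droplets, had 1.01, 1.04 and 1.17 in Maf1 KO livers, against 0.95, 0.59 and 0.48 in the wild-type livers (0.40), and Elovl6, a fatty acid elongase, differed by 0.35, both without overlap.

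Ddit4, an inhibitor of mTORC1 that is also called REDD1 (chromosome 10, 59412423 to 59414518), had total RNA scores of 1.54, 0.62 and 0.23 in Maf1 KO livers, against -0.56, -0.79 and -0.24 in the wild-type livers. Its footprints were 2.71, 2.18 and 1.898 in Maf1 KO livers, against 1.10, 0.74 and 2.47 in the wild-type livers, WT3 again being the high one. The efficiency difference was -0.51 and became -0.14 without WT3. Tilz3b, a name for which no role is given here, had an efficiency difference of -0.33, and 0.14 without WT3. Cdkn1a rose in mRNA (-0.71, -0.69 and -1.01 in Maf1 KO livers, against -3.33, -2.94 and -2.96 in the wild-type livers), but its footprints of 1.56, 1.31 and 1.15 in Maf1 KO livers lay between those of WT1 and WT2 (0.14 and -1.02) and that of WT3 (2.82). Its efficiency difference of -1.58 (SE 0.73, limma adjusted p = 1) was -0.55 without WT3.

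Among abundant genes with less mRNA, 3 near-identical fatty acid omega-hydroxylases of the Cyp4a family, targets of PPAR alpha in fasting, stood first. Cyp4a10 (chromosome 4, 115190869 to 115206254) had total RNA scores of 2.54, 3.41 and 1.89 in Maf1 KO livers, against 3.51, 4.72 and 3.69 in the wild-type livers. Its footprints were 3.30, 4.05 and 2.69 in Maf1 KO livers, against 4.13, 5.32 and 3.11 in the wild-type livers, so that they overlapped through WT3. The efficiency differences of 0.52 in Cyp4a10, 0.42 in Cyp4a31 and 0.33 in Cyp4a32 were 0.12, 0.08 and 0.00 without WT3. Sult1b1, a sulfotransferase, differed by -1.13 in total RNA and by -0.49 in footprints, and its efficiency difference of 0.65 was 0.35 without WT3. Phlda1, a pleckstrin homology domain protein, had -1.11 in total RNA and -1.05 in footprints, leaving 0.06. For Serpina12 and Rarres1, a retinoid induced gene, efficiency differences of 1.37 and 0.56 were 0.27 and -0.04 without WT3. 0610012H03Rik, now named Them7, had 0.52, and 0.27 without WT3.

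Groups of mitochondrial genes with modestly lower mRNA had higher efficiency values, with the same sign when WT3 was left out. This was not particular to them, and efficiency subtracts total RNA. The 1098 genes of any kind between -0.5 and -0.25 in total RNA had a median efficiency difference of 0.20, and the 513 abundant ones 0.17. Genes of fatty acid oxidation and ketogenesis had a median total RNA difference of -0.27, with 32 of 34 below 0 and 13 lower without overlap (7.03% of all genes), and a median footprint difference of -0.14. Their median efficiency was 0.85, 0.95 and 0.92 in Maf1 KO livers, against 0.76, 0.78 and 0.70 in the wild-type livers, and 26 of 34 genes had a positive difference (median 0.15 with libraries centred, 0.07 without WT3, and -0.06 on the deposited scale, where the median of all genes was -0.19). In efficiency 4 of the 34 did not overlap (11.8%), all higher in Maf1 KO livers, beside 3.94% higher over all genes. Cpt1a, which admits fatty acids to mitochondria, had 0.83, 1.09 and 1.19 in Maf1 KO livers, against 0.77, 0.78 and 0.48 in the wild-type livers, with -0.49 in total RNA and -0.13 in footprints.

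Oxidative phosphorylation genes had smaller differences of the same signs. Their total RNA was lower by a median of -0.16, 70 of 75 being below 0 and 18 lower without overlap (7.03% of all genes), while footprints had -0.08 and efficiency 0.07 with 52 of 75 above 0 (-0.14 on the deposited scale). Genes of the TCA cycle had -0.16 in total RNA, -0.09 in footprints and 0.09 in efficiency with 15 of 18 above 0 (-0.12 on the deposited scale). Suclg2, a subunit of succinate-CoA ligase, differed by 0.29 in efficiency and -0.27 in total RNA. Tfrc, the transferrin receptor, whose mRNA is stabilized when iron is low, had -0.79 in total RNA, -0.41 in footprints and 0.38 in efficiency. Ribosomal proteins had a similar -0.14 in total RNA and the opposite sign in efficiency, so that in them footprints differed more than mRNA.

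**Figure D5:**
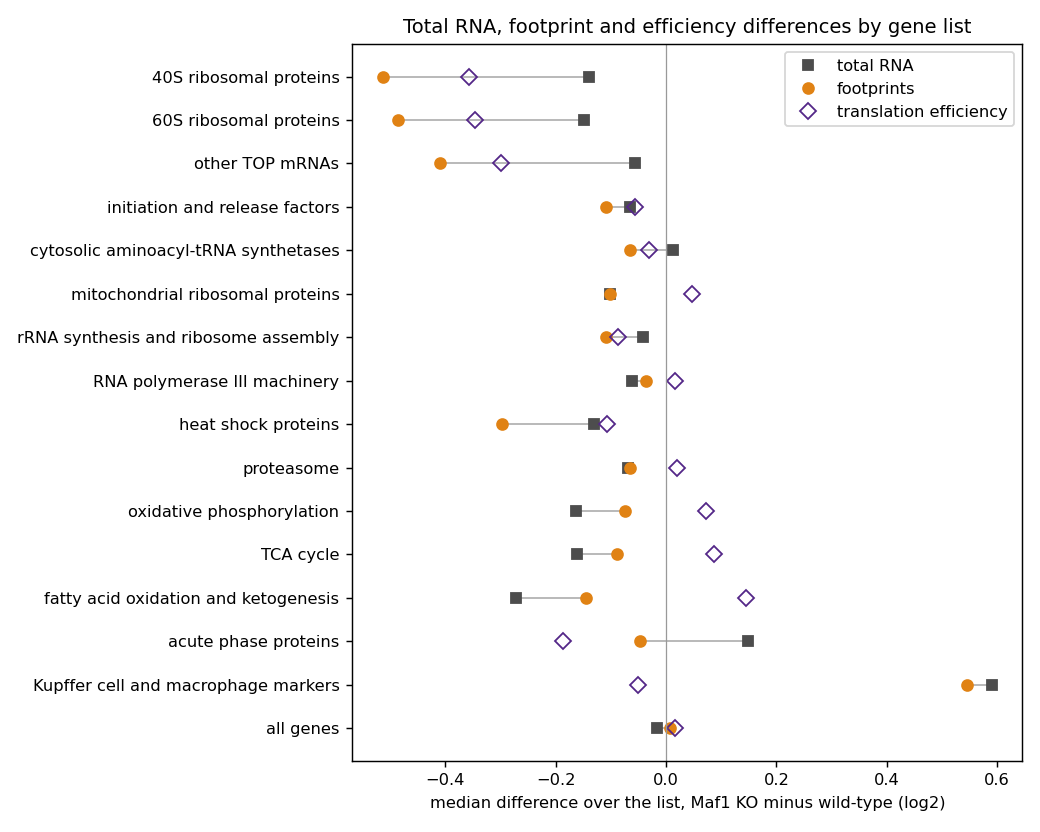
Median difference over each of 16 lists, Maf1 KO minus wild-type in log2, in total RNA (grey squares), footprints (orange circles) and translation efficiency (open purple diamonds). In the 40S, 60S and other TOP lists footprints lay well below total RNA, at -0.51, -0.49 and -0.41 beside -0.14, -0.15 and -0.06, while in fatty acid oxidation, oxidative phosphorylation and the TCA cycle footprints were nearer to 0 than total RNA.

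Macrophage markers had higher values in mRNA and in footprints alike. All 16 Kupffer cell and macrophage markers had positive differences in both libraries, with medians of 0.59 in total RNA and 0.55 in footprints, and 11 of 16 were higher without overlap in total RNA, beside 6.92% of all genes. The list median in total RNA was 1.75, 1.98 and 1.62 in Maf1 KO livers, against 1.29, 1.33 and 1.39 in the wild-type livers. Clec4f, a lectin that defines Kupffer cells, had 3.44, 3.76 and 3.56 in total RNA of Maf1 KO livers and 3.12, 3.17 and 3.38 in that of wild-type livers. Marco, a scavenger receptor named here after its value was seen, had -0.06, 1.65 and -0.22 in Maf1 KO livers and -2.10, -1.36 and -1.73 in wild-type livers (2.19, limma adjusted p = 0.237). The list median in footprints was 2.27, 2.62 and 2.28 in Maf1 KO livers, against 1.40, 1.73 and 2.39 in the wild-type livers, where WT3 reached the Maf1 KO range. In these bulk samples more cells of a type and more RNA per cell cannot be told apart. Efficiency of the markers differed by a median of -0.05, with 9 of 16 below 0, which turned to 0.05 without WT3 and to 0.01 without KO1, and the 2 with the smallest p were lower, Ctss (cathepsin S) by -0.32 and Aif1 (IBA1) by -0.54. Hepatocyte markers, whose median total RNA score was 7.59 to 8.02 in every liver, had 0.04 in total RNA, 0.08 in footprints and 0.02 in efficiency. Higher total RNA was not particular to macrophage markers. Endothelial markers had 0.14 in total RNA, with 12 of 13 above 0 and 2 higher without overlap. They had 0.12 in footprints and -0.04 in efficiency. Stellate cell markers had 0.20 in total RNA, with 11 of 13 above 0 and 5 higher without overlap, and 0.01 in footprints. The efficiency difference of the stellate cell markers, -0.18, turned to 0.01 without WT3. The part of these cells in the ribosomal protein result was not tested.

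Among secreted hepatocyte products, plasma carriers and apolipoproteins had a median difference of 0.01 (33 genes), and coagulation and complement genes 0.06 (40 genes). Acute phase proteins had list medians of 0.96, 1.11 and 0.89 in Maf1 KO livers, against 0.87, 0.94 and 1.63 in the wild-type livers, and their difference of -0.19 was 0.00 without WT3. Mt1, metallothionein, had efficiencies of 1.959, 2.86 and 2.24 in Maf1 KO livers, against 3.22, 2.68 and 3.51 in the wild-type livers.

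Genes that the study discussed outside the ribosome had low or variable footprints. Elk1, an ETS transcription factor (chromosome X, 20510521 to 20527734), had the lowest efficiency difference of all genes, -4.19 (SE 0.76, limma adjusted p = 1). Its centred footprint scores were -5.73, -8.11 and -8.15 in Maf1 KO livers, against -4.12, -3.00 and -3.62 in the wild-type livers, all far below the median gene. In KO2 and KO4, 2 of the 3 transcripts of Elk1 lay at the lowest footprint score of the library, a value that 17 transcripts shared in KO2 and 32 in KO4, so that the difference there depends on where that lowest value was set. Pacrgl had -0.78, -2.03 and -1.66 in Maf1 KO livers, against 0.60, -0.06 and 0.82 in the wild-type livers, and Serf1 had 0.10, -1.21 and -1.11 in Maf1 KO livers, against 0.58, 0.15 and 0.55 in the wild-type livers, also with weak footprints. Odc1, ornithine decarboxylase, the first enzyme of polyamine synthesis, had -1.84, -2.17 and -2.44 in Maf1 KO livers, against -2.44, -2.74 and -2.77 in the wild-type livers (0.49, SE 0.23), and its total RNA differed by -0.34. Nnmt, which overlapped, had an efficiency difference of -1.74 that was 0.13 without WT3. Tbp, the TATA binding protein, differed by -0.16 (SE 0.42), less than its standard error.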

How the data were processed

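The deposited table holds log2 scores per transcript. According to the methods, the authors aligned tags of footprint and total RNA libraries to fly (dm6) and mouse (mm9) coding sequences, dropped tags common to both genomes and tags of rRNA and small cytoplasmic RNA, normalized to the aligned total and by TMM in edgeR, and applied a factor from a fly S2 cell spike (1 part to 15). Which aligner was used was not stated, and the header does not say whether the fly factor is included. Such a factor shifts a whole library, which centring removes, together with any change common to all genes. The depth of the libraries is unknown, and the scores do not allow whole reads to be derived.

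Scores of 26260 transcripts were averaged per gene (11587 genes, 12 columns, 0 missing values). Total RNA scores were never below 4.76, whereas footprint scores reached -2.65. Efficiency, footprints and total RNA were each tested by limma 3.58.1 in R 4.3.3 (lmFit, eBayes with the prior variance following the mean footprint score, genotype only), with Benjamini-Hochberg adjustment over all genes at 0.05. Differences are Maf1 KO minus wild-type. The scripts were tested on simulated data. The labels name separate mice and say nothing of litters or cages.

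The 35 gene lists, the rule for named genes and the tests were chosen with earlier results of these data known. Named genes were, among abundant genes without overlap, the 8 smallest p per direction in efficiency and the 8 largest total RNA differences per direction, the 2 smallest p in each list (6 in the 40S, 60S and other TOP lists), and genes the study discussed; Rps29, Vim, Marco, Mup4 and Mup6, and Saa1 and other genes that stood apart in WT3, were named after their values were seen. Some genes that the rule names are not reported here. Coordinates and coding lengths came from gencode vM1 (NCBIM37, mm9), the latter in place of the protein lengths first planned, and names and starts from RefSeq (GRCm38.p6). Alternatives were the deposited scale, quantile normalization, a filter at the 0.25 quantile of footprints, the top transcript, a common or robust prior, a threshold of 0.1, an interaction model, the replicate block and leaving out mice. Chosen after seeing the data were transcript starts of gencode vM1, the choice of genes on footprints, counts of ribosomal proteins without mice, and the deposited scale without KO1 and WT3.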

Additional observations from a re-analysis of the deposited data

How the results depend on the processing

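Read depth is unknown, and the median standard error of an efficiency difference was 0.25, or 0.35 among the genes with the fewest footprints. Efficiency gave 0 calls in limma under every alternative except 2: 1 on the deposited scale (Elk1, lower, adjusted p = 0.00224) and 13 with the replicate block (2 higher, 11 lower). The genotypes share only 2 mouse numbers and the labels tie no number to a litter or batch, so the mice were not taken as paired. Deviations of KO1 and WT1, and of KO2 and WT2, correlated at -0.10 and 0.10 in efficiency, -0.06 and 0.10 in footprints, and 0.23 and 0.27 in total RNA. Footprint calls were 0 but for 10 on the deposited scale and 429 with the replicate block. Total RNA calls, 2 in the main analysis, were 38 on the deposited scale, 1 with a common prior, 1 without any one mouse, and 0 with the replicate block, without KO1 and WT3, or without these 2 mice on the deposited scale. The cause was not tested. On the deposited scale the median efficiency difference was -0.57 for the 40S, -0.55 for the 60S and -0.51 for other TOP lists, where that of all genes was -0.19 (0.40 without KO1 and WT3). Leaving out each mouse in turn gave -0.42 to -0.35 for the 40S, -0.38 to -0.27 for the 60S and -0.40 to -0.21 for other TOP lists, and the replicate block -0.41, -0.32 and -0.27.

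The share of genes with a smaller or opposite footprint difference was 86.2% and became 91.4% on the deposited scale, 90.0% with low footprints removed, 72.4% with the replicate block (KO1 against WT1 and KO2 against WT2 in 1 direction), 79.0% without KO1 and WT3, 91.8% with genes chosen on footprints, and 75.4% to 89.1% without each mouse. Among medians that turned sign were, on the deposited scale, fatty acid oxidation (-0.062), oxidative phosphorylation (-0.135), the TCA cycle (-0.121) and mitochondrial ribosomal proteins (-0.161, and -0.025 without KO4 and -0.021 without WT2). The deposited scale lowers the difference of every gene by the same amount, and the median of all genes was -0.191 there. These lists thus kept their place relative to all genes, and a negative difference could not turn sign on that scale. Acute phase proteins gave 0.011 without KO1 and WT3, 0.013 with the replicate block and -0.309 to 0.004 without each mouse, and stellate cell markers -0.296 to 0.011, the positive values being those without WT3. Heat shock proteins gave 0.032 with the replicate block. Kupffer cell markers gave 0.049 without WT3, 0.014 without KO1, 0.089 without both and 0.008 with the replicate block, and integrated stress response genes 0.002 with low footprints removed, 0.031 without WT1 and 0.010 without KO1 and WT3. Of 69 named genes, 56 kept the sign of their efficiency difference in the alternatives run for them (12, or 11 for Elk1 and Pacrgl, which the filter on low footprints removed). The ribosomal and other TOP genes of the 69 were among these 56, while Rps29 and Vim were not among the 69. Among the other 13 were Nnmt, Scd1, Me1, Acacb, Ddit4, Tilz3b, Cyp4a32, Phlda1, Rarres1, Fasn, Acaca and Tbp. Tpt1 passed the limma test with the replicate block.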

Other observations

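Mouse KO4 also had values of its own. Mup4 and Mup6, 2 genes of the major urinary proteins secreted by the liver, were chosen after their values were seen. Mup6 footprint scores were 6.83, 8.01 and 10.16 in KO1, KO2 and KO4, against 8.10, 8.25 and 7.27 in WT1, WT2 and WT3, while its total RNA scores were 5.49, 5.89 and 6.05 in Maf1 KO livers, against 6.07, 5.82 and 5.89 in the wild-type livers. Mup4 efficiency in KO4 lay 2.32 above the mean of KO1 and KO2. The genes of this family are near-identical and share tags, and the others are not described here. Histone genes had a median efficiency of 1.08, 1.15 and 1.83 in Maf1 KO livers, against 1.40, 1.29 and 1.29 in the wild-type livers, KO4 being the highest. Sec61g, the smallest subunit of the Sec61 channel, had 0.05, 0.32 and 2.003 in Maf1 KO livers, against -0.61, 0.38 and 0.60 in the wild-type livers.

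In WT3, besides Nnmt, Saa1 and Serpina12, efficiency lay apart for Saa2 (3.36 above the mean of WT1 and WT2), Saa3 (2.47), the amino acid transporter subunit Slc3a1 (2.33) and Apcs, serum amyloid P (2.25), and below that mean for G0s2, an inhibitor of lipolysis (-2.10), and for the arrestin-like Arrdc3 (-2.002).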
